A study of Mus musculus with 6 samples.

Results

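The 9 genes described here, Rgs1, Rgs2, Rgs3, Rgs10, Rgs12, Rgs14, Rgs16, Rgs18 and Rgs19, encode regulators of G protein signalling. They were compared between 2 blood-forming populations that had been sorted by flow cytometry from wild-type mice of the strain C57BL/6. LSK cells were low in lineage markers and positive for Sca1 and Kit, and hold stem cells and multipotent progenitors. LK cells were low in lineage markers, negative for Sca1 and positive for Kit, and hold committed progenitors. There were 3 arrays of each population, and their number limits the precision of every value. The labels do not say whether the arrays came from separate animals or from pools, so the p-values reflect how far these samples spread, and some of that spread may be technical. All 9 genes were measured, by 21 probe sets, out of 18193 genes tested. Where a gene has several probe sets, the one brightest on average over the 6 arrays stands for it and the others serve as a check.

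Receptors coupled to G proteins, among them the chemokine and prostaglandin receptors of blood cells, load the G alpha subunit with GTP. RGS proteins carry a domain that speeds the hydrolysis of this GTP and so ends the signal sooner. Rgs1, Rgs2, Rgs3, Rgs16 and Rgs18 belong to the subfamily called R4, whose members are mostly short proteins. Rgs10, Rgs12 and Rgs14 form the subfamily R12, of which Rgs12 and Rgs14 also bind Ras proteins and hold a second G alpha binding motif. Rgs19 belongs to the subfamily RZ.

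None of the 9 genes passed the threshold between the populations over all genes, with 0 higher and 0 lower in LSK (limma, Benjamini-Hochberg adjusted p under 0.05), while 6.73% of all genes tested did, 3.84% as higher and 2.89% as lower. At an unadjusted p under 0.05 there were 3, namely Rgs1, Rgs10 and Rgs16, and 22.4% of all genes lay under that p. The arrays carry the numbers 1 to 3 in both populations, and arrays of one number deviated together. With this number as a block, limma called 2 of the 9, Rgs1 as higher and Rgs10 as lower in LSK, and 14.4% of all genes. The populations did not overlap for Rgs1, Rgs10, Rgs14 and Rgs16, 4 of the 9 genes, and did not overlap for 28.0% of all genes. Differences lay above 0 for 5 of the genes and below 0 for 4, with a median of 0.16 on the log2 scale against -0.022 over all genes tested.

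**Figure D1:**
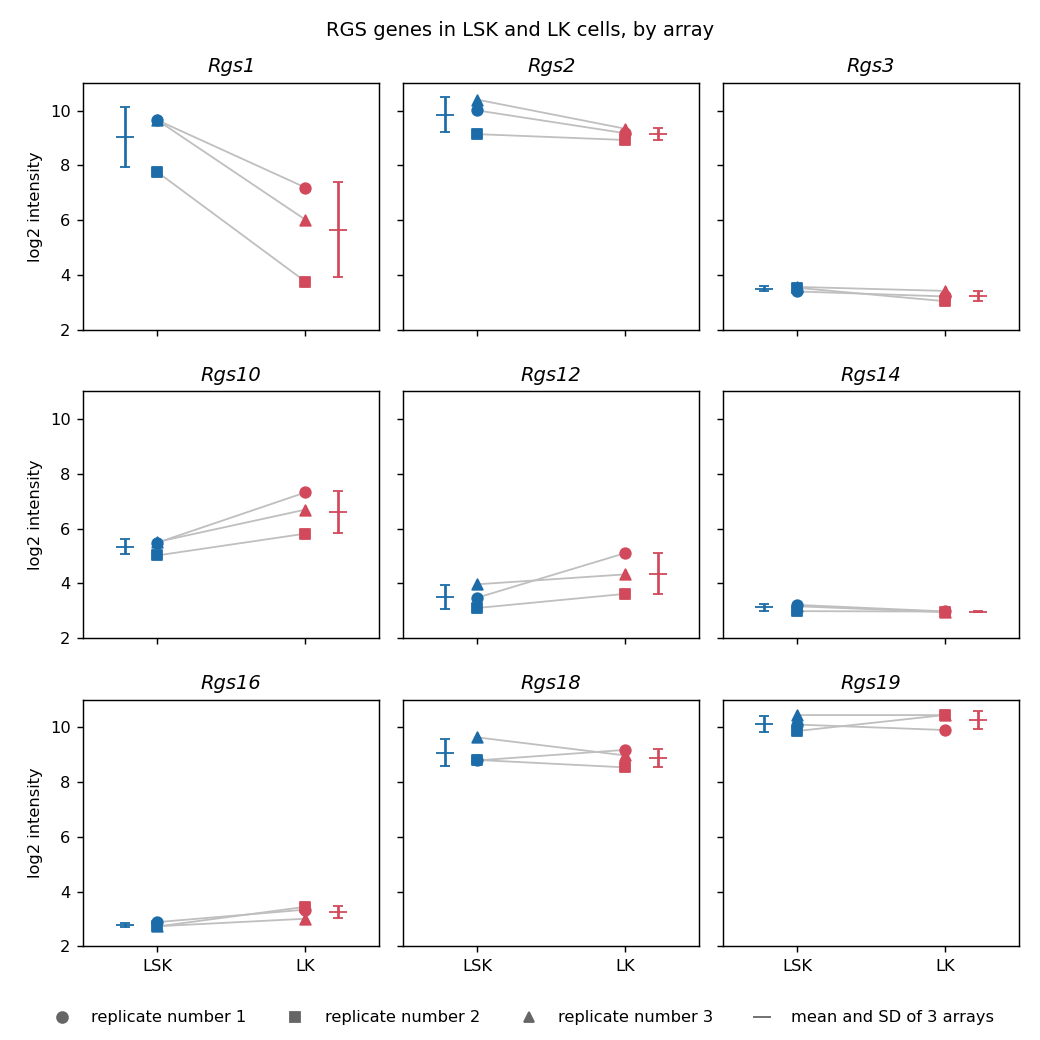
Log2 intensity of each RGS gene (vertical axis) on the 3 LSK arrays (left, blue) and the 3 LK arrays (right, red), with grey lines between arrays of the same number and bars for the mean and SD. The points of Rgs1 lie between 7.76 and 9.65 in LSK and between 3.76 and 7.19 in LK, and those of Rgs3, Rgs14 and Rgs16 stay under 4.

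Rgs1, known from lymphocytes as a brake on chemokine receptor signalling, had the largest difference of the 9. Its log2 intensity was 9.65, 7.76 and 9.65 on LSK arrays 1, 2 and 3, against 7.19, 3.76 and 6.02 on LK arrays 1, 2 and 3. The lowest LSK array lay above the highest LK array, and the array numbered 2 was the lowest in both populations. The mean was 9.02 ± 1.09 in LSK and 5.66 ± 1.74 in LK (SD, n = 3 each). LSK exceeded LK by a log2 difference of 3.36 (SE 0.92, 10.3-fold, 95% interval 1.16 to 5.57), with a limma adjusted p of 0.0825. Within arrays of one number the difference was 2.46, 3.999 and 3.63, so LSK was higher in 3 of 3 pairs. With the number as a block the limma adjusted p was 0.00522. The SE in that fit was 0.31, a value that limma draws towards the spread of all genes and not the spread of these 3 pairs alone. Rgs1 has a single probe set, so no other probe set can check it. Without both arrays numbered 2 the log2 difference was 3.05 and the limma adjusted p was 0.0358. Without single arrays the difference was 2.42 to 4.13 and the limma adjusted p 0.0634 to 0.224.

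Rgs1 is also known as a gene that stimulated cells induce quickly. The 18 immediate early genes listed for this comparison, which cell handling and sorting can induce, all had differences above 0, with a median of 1.52. Over all genes tested 8487 of 18193 lay above 0, with a median of -0.022. Their mean log2 level was 8.43, 7.11 and 8.82 on LSK arrays 1, 2 and 3, against 6.93, 6.10 and 6.98 on LK arrays 1, 2 and 3. Like Rgs1, this mean was lowest on the array numbered 2 of each population. That held as well for 23.3% of all genes and for 35.6% of the genes with a mean log2 of at least 5. Only Ier3 (log2 difference 2.54, limma adjusted p = 0.0297) and Jun (1.58, limma adjusted p = 0.0471) were called, 2 of the 18, where 6.73% of all genes were. At an unadjusted limma p under 0.05 there were 12 of the 18, and 22.4% of all genes lay under that p. Leaving out any 1 array but LSK replicate 2 ended the call of Ier3 (limma adjusted p up to 0.0896). For Jun this held for each of the 6 arrays (limma adjusted p up to 0.146), and the mean of all Jun probe sets gave 1.37 (limma adjusted p = 0.0847). With the number as a block 12 of the 18 were called, and 14.4% of all genes. The part of such induction in the Rgs1 difference was not tested.

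Lymphocytes are another cell type with much Rgs1. Of 7 measured B cell markers 0 were called (0 at an unadjusted limma p under 0.05) and 6 averaged a log2 under 4 in LSK and in LK, and their summed intensity was 54.3 to 62.9 in LSK and 57.8 to 69.3 in LK. All 6 measured markers of T and NK cells had means under 4, 0 were called (0 at that unadjusted p), and their sum was 38.9 to 53.8 in LSK and 38.9 to 41.5 in LK. Most of these markers thus lay at the dim end of the array in LSK and in LK.

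Rgs2 favours G alpha q as its substrate and is induced by cyclic AMP in several cell types. The log2 intensity was 10.01, 9.14 and 10.40 on LSK arrays 1, 2 and 3, against 9.17, 8.93 and 9.34 on LK arrays 1, 2 and 3. LSK array 2 lay among the LK arrays, so the populations overlapped. This gave a log2 difference of 0.70 (SE 0.32, 95% interval -0.064 to 1.47, limma adjusted p = 0.264), and 0.0745 with the number as a block. The probe set that stands for Rgs2 carries a suffix for sets shared by several transcripts. Another of its 4 probe sets, 1419247_at, separated the populations, with 9.59, 9.06 and 9.81 on LSK arrays and 7.99, 7.84 and 8.50 on LK arrays. Its log2 difference was 1.37 (SE 0.25), with a limma adjusted p of 0.0424 over all probe sets and 0.00832 with the block. It was the 1 of 21 probe sets of the family that passed, where 3.21% of all probe sets did. With the block 3 of the 21 passed, this one and the probe sets of Rgs1 and Rgs10, where 9.24% of all probe sets did. The third, 1419248_at, had a log2 difference of 0.73 (limma adjusted p = 0.282), and 1443250_at had means of 2.45 in LSK and 2.51 in LK. The 3 bright probe sets thus all had a higher mean in LSK, and in the representative one LSK was higher in 3 of 3 pairs (0.83, 0.21 and 1.06), while passing the threshold depended on the probe set.

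The sequence before the start of Rgs2 is shown because a cyclic AMP response is part of what the gene is known for, beside that of Rgs16, another inducible R4 gene of the same chromosome that stayed dim on all 6 arrays. Both are the 250 bases before the listed start in RefSeq, build GRCm38.p6, with Rgs2 at chr1:144004150-144004399 on the minus strand and Rgs16 at chr1:153740103-153740352 on the plus strand. Capitals mark the core of the cyclic AMP response element, TGACG or its reverse CGTCA.
Rgs2: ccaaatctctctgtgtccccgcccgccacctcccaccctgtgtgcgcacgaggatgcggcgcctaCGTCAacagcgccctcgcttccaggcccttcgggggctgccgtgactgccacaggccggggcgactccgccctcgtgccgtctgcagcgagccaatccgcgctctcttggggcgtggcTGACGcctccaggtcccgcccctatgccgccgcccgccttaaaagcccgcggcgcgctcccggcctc
Rgs16: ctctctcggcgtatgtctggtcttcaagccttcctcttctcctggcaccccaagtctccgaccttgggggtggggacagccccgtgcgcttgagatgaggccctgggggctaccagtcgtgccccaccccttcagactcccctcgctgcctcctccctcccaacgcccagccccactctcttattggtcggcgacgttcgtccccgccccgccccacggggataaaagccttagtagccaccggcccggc

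Rgs2 holds this core at 2 places, which begin at -185 and -67 from the start, and Rgs16 holds none. RefSeq sequence was at hand for 6 of the 9 genes, with 10 starts, and the core stood before 2 of these starts, 1 of Rgs2 and 1 of Rgs12. On either strand, 17.8% of 32851 such sequences hold it. The sequences of Rgs2 and Rgs16 hold neither the GATA motif AGATAA (9.99% of all) nor the AP-1 motif TGACTCA (4.46% of all) on either strand. A match in these letters is a description and no measure of binding.

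Rgs18 is an R4 protein of platelets and their precursors. The log2 intensity was 8.79, 8.80 and 9.63 on LSK arrays 1, 2 and 3, against 9.17, 8.53 and 8.97 on LK arrays 1, 2 and 3, and the populations overlapped. The log2 difference was 0.18 (SE 0.28, 95% interval -0.49 to 0.86, limma adjusted p = 0.768), which leaves room for less than a 2-fold difference either way, and without LSK replicate 3 it was -0.095. Its other probe set, 1420398_at, was higher on each LSK array (8.73, 8.73 and 8.99) than on any LK array (8.45, 8.07 and 8.31). The log2 difference there was 0.54 (SE 0.15), with a limma adjusted p of 0.121 over all probe sets and 0.0824 with the block. Of 9 measured markers of megakaryocytes and platelets, 0 were called, and their summed intensity was 187 to 230 in LSK and 227 to 490 in LK. At an unadjusted limma p under 0.05 there were 4, and 22.4% of all genes lay under that p. Differences lay above 0 for 2 of these markers and below 0 for 7, with a median of -0.28. The lowest p belonged to Gp9, a subunit of the platelet receptor for von Willebrand factor, with means of 4.40 in LSK and 3.42 in LK (log2 difference 0.98, limma adjusted p = 0.0670, and 0.0241 with the block). Pf4, the platelet chemokine, lay the other way, with means of 6.62 in LSK and 7.79 in LK (limma adjusted p = 0.0935, and 0.0433 with the block). So did Gp5 (-0.55, limma adjusted p = 0.0764) and Vwf (-0.83, limma adjusted p = 0.165), both under that unadjusted p.

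Rgs3 and Rgs16, the other R4 genes here, lay near the lower end of the range, where differences are compressed. Rgs16 had log2 intensities of 2.89, 2.73 and 2.74 on LSK arrays and 3.34, 3.44 and 3.01 on LK arrays, without overlap. The log2 difference was -0.48 (SE 0.16, limma adjusted p = 0.127), and its other 2 probe sets had differences of 0.052 and 0.19. Rgs3 had means of 3.50 ± 0.09 in LSK and 3.23 ± 0.19 in LK (SD, n = 3 each, limma adjusted p = 0.339), and its other 3 probe sets had means under 3 in both populations. Neither gene can be said to differ or to be alike at these levels.

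Rgs10, which acts on the G alpha i class, had the largest difference in the opposite direction to Rgs1. The log2 intensity was 5.48, 5.02 and 5.51 on LSK arrays 1, 2 and 3, against 7.32, 5.81 and 6.69 on LK arrays 1, 2 and 3. Each LSK array lay below each LK array, and the array numbered 2 was the lowest of both populations. The mean was 5.34 ± 0.28 in LSK and 6.61 ± 0.76 in LK (SD, n = 3 each). The log2 difference was -1.27 (SE 0.38, 2.41-fold, 95% interval -2.17 to -0.37), with a limma adjusted p of 0.100. Within arrays of one number it was -1.83, -0.80 and -1.18. With the number as a block the SE was 0.22 and the limma adjusted p was 0.0218. Without single arrays the difference was -1.67 to -0.91. The limma adjusted p was 0.0339 without LK replicate 2 and 0.153 to 0.259 without each of the other 5 arrays. A single probe set measures Rgs10.

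Rgs12, a long member of the same subfamily, had log2 intensities of 3.47, 3.10 and 3.96 on LSK arrays 1, 2 and 3, against 5.10, 3.62 and 4.33 on LK arrays 1, 2 and 3. The populations overlapped, although LK was higher in 3 of 3 pairs. Its log2 difference was -0.84 (SE 0.40, limma adjusted p = 0.285), and the limma adjusted p was 0.106 with the block. Its other 2 probe sets had means under 3 in both populations, so the level of Rgs12 rests on a single probe set. Rgs14 had means of 3.12 ± 0.12 in LSK and 2.96 ± 0.01 in LK (SD, n = 3 each). These do not overlap but lie where the array is dimmest, and the limma adjusted p was 0.534.

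Rgs19, first known as a partner of G alpha i3, was measured well above that end in both populations. The log2 intensity was 10.10, 9.86 and 10.44 on LSK arrays 1, 2 and 3, against 9.90, 10.45 and 10.44 on LK arrays 1, 2 and 3. The log2 difference was -0.13 (SE 0.22, 95% interval -0.66 to 0.40, limma adjusted p = 0.797). LSK was lower in 1 of 3 pairs, and the sign changed in some of the alternatives. The probe set carries a suffix for possible cross-hybridisation. The other one, 1417786_a_at, had a log2 difference of -0.29 (SE 0.34, limma adjusted p = 0.727 over all probe sets).

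**Figure D2:**
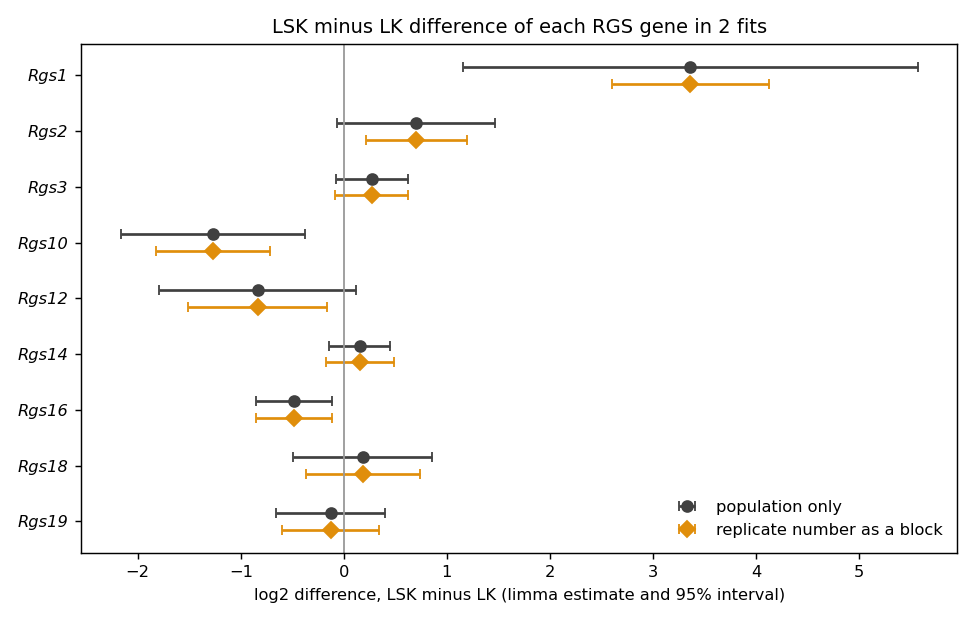
Log2 difference, LSK minus LK, of each RGS gene (horizontal axis) with its 95% interval from limma, with population as the only term (black circles) and with a block for the replicate number (orange diamonds). The interval of Rgs1 is 1.16 to 5.57 without the block and 2.60 to 4.13 with it, and that of Rgs10 is -2.17 to -0.37 and -1.82 to -0.72.

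**Figure D3:**
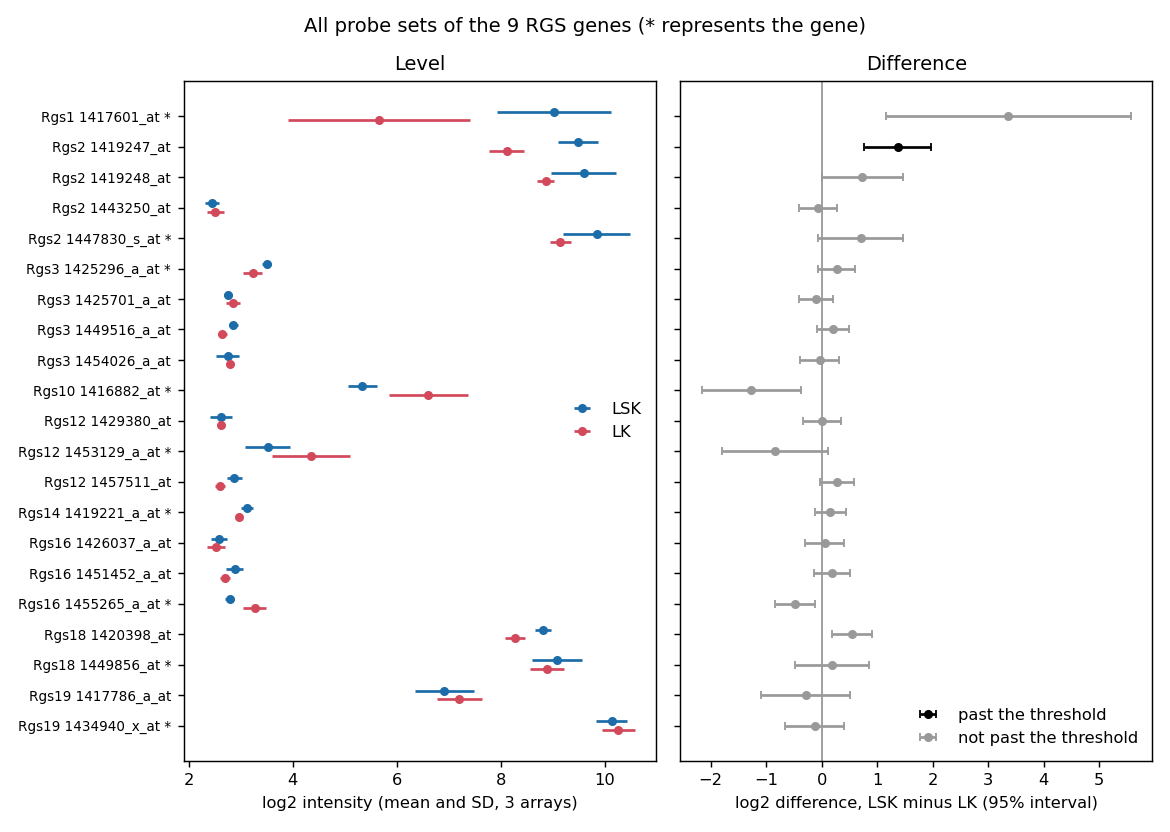
All 21 probe sets of the 9 genes, with the mean and SD of 3 arrays in LSK (blue) and LK (red) on the left and the log2 difference with its 95% interval on the right. Rgs2 probe set 1419247_at (1.37, black) is past the threshold, the grey ones are not, and an asterisk marks the probe set that represents its gene.

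In 4 of the 9 genes (Rgs1, Rgs2, Rgs10 and Rgs12) the array numbered 2 was the lowest of both populations, as it was in 23.3% of all genes and in 35.6% of the genes with a mean log2 of at least 5. The arrays numbered 2 also had lower upper quartiles, 22.1 in LSK and 20.8 in LK, against 24.3 to 25.8 on the other 4. The mean 3' to 5' difference of the control probe sets, a measure of RNA quality and amplification, was 2.64 ± 0.57 in LSK and 3.53 ± 0.36 in LK (SD, n = 3 each). With this difference as a covariate the log2 difference of Rgs1 was 2.75 (SE 1.49, limma adjusted p = 0.671), and 25 of all genes were called. The covariate was 2.32, 2.32 and 3.30 on LSK arrays 1, 2 and 3, against 3.26, 3.94 and 3.40 on LK arrays. It thus went largely with population, and with so few arrays the part of each cannot be told apart.

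The labelled populations were checked by markers. Of 9 stem and multipotent progenitor genes 7 were higher in LSK, with a summed intensity of 5339 to 6163 in LSK and 836 to 1226 in LK. Of 7 erythroid genes 4 were lower in LSK (sum 67.0 to 139 in LSK and 2426 to 6024 in LK), as were 4 of 7 granulocyte and monocyte progenitor genes. Among 6 mast cell and basophil markers 1 was lower, and 1 of 7 mature monocyte and macrophage markers and 1 of 6 endothelial markers were higher. These 2 were C1qb (means of 3.84 in LSK and 2.34 in LK) and Emcn (4.03 and 2.26), with LK means near the lower end of the range. Csf1r, of the same monocyte and macrophage list as C1qb, lay the other way, with means of 8.12 in LSK and 10.31 in LK. Its limma adjusted p was 0.0793, and 0.0215 with the block. The summed intensity of that list was 181 to 768 in LSK and 977 to 1587 in LK, with differences above 0 for 5 markers and below 0 for 2. Of the sorting markers only Kit, for which both populations are positive, was looked at here, and Sca1 was not. Kit had a mean of 8.55 in LSK and 7.74 in LK (limma adjusted p = 0.124). In these mixed populations fewer cells of a type and less RNA per cell cannot be told apart.

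On chromosome 1 the protein-coding genes Rgs2, Rgs13, Rgs1, Rgs21 and Rgs18 follow each other in the RefSeq table, with no other protein-coding gene between them. Their differences were unlike. Rgs1 had a log2 difference of 3.36, Rgs2 of 0.70 and Rgs18 of 0.18, while Rgs13 had means of 2.54 in LSK and 2.62 in LK, and Rgs21 was not analysed here. Rgs16 lies elsewhere on the chromosome, next to Rgs8. No test of the difference between these genes was made.

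Of the other RGS genes 10 were measured, 0 of them called and 0 at an unadjusted limma p under 0.05. Each averaged a log2 under 4 in LSK and in LK. The lowest p belonged to Rgs17, with means of 3.25 in LSK and 3.86 in LK (limma adjusted p = 0.385). The 9 genes of this comparison thus include every measured RGS gene with a mean of 4 or more in either population, which are Rgs1, Rgs2, Rgs10, Rgs12, Rgs18 and Rgs19.

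The wider pathway was read from 7 lists, the other RGS genes among them, which hold 105 measured genes. Of these 8 were higher and 1 lower in LSK, together 8.57%, near the 6.73% of all genes tested. Over all genes the calls were split more evenly, with 3.84% higher and 2.89% lower. Among 15 G alpha genes 1 was higher and 0 lower (median 0.060). It was Gnaz, of the G alpha i class, with means of 4.07 ± 0.49 in LSK and 2.72 ± 0.40 in LK (log2 difference 1.35, SE 0.30, limma adjusted p = 0.0488). Its call ended when any 1 array but LSK replicate 3 was left out (limma adjusted p up to 0.156), and the mean of all its probe sets gave 0.67 (limma adjusted p = 0.0755). Its LK level lies near the lower end of the range. Gnai2 and Gnai3, which encode main substrates of RGS proteins, had differences of -0.50 and -0.34 (limma adjusted p = 0.245 and 0.340).

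Among 16 G beta and gamma genes 2 were higher and 0 lower (median 0.089), where 3.84% of all genes were higher and 2.89% lower. The 2 called genes encode gamma subunits. Gng2 had log2 intensities of 10.15, 9.74 and 9.87 on LSK arrays and 8.16, 7.55 and 8.24 on LK arrays, without overlap (log2 difference 1.93, SE 0.22, limma adjusted p = 0.00676). Gng11 had means of 5.63 ± 0.42 in LSK and 3.78 ± 0.36 in LK (log2 difference 1.84, SE 0.27, limma adjusted p = 0.0146). Both were called in each fit without 1 array.

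Among 28 receptor genes 5 were higher and 1 lower (median 0.034), where 3.84% of all genes were higher and 2.89% lower. P2ry14, a receptor for UDP-glucose, had log2 intensities of 6.84, 6.77 and 7.21 on LSK arrays and 4.71, 3.47 and 3.94 on LK arrays (log2 difference 2.90, SE 0.32, limma adjusted p = 0.00624). Calcrl, a receptor for adrenomedullin, had 10.89, 11.05 and 10.74 on LSK arrays and 8.71, 8.40 and 8.35 on LK arrays (log2 difference 2.41, SE 0.16, limma adjusted p = 0.00127). Both separated the populations by more than 2 on the log2 scale and were called in each fit without 1 array, but the mean of all Calcrl probe sets gave 0.64 (limma adjusted p = 0.100). The adhesion receptor Adgrg1 (log2 difference 1.65, limma adjusted p = 0.0448), the complement receptor C5ar1 (1.11, limma adjusted p = 0.0249) and the prostaglandin receptor Ptger4 (0.92, limma adjusted p = 0.0163) were also higher. The cannabinoid receptor gene Cnr2 was lower, with means of 2.57 in LSK and 3.42 in LK (-0.85, limma adjusted p = 0.0458), both near the lower end of the range where differences are compressed. The call of Adgrg1 ended when any 1 array but LK replicate 1 was left out (limma adjusted p up to 0.143). That of C5ar1 ended for any but LK replicate 3 (up to 0.0896), and that of Cnr2 for any of the 6 (up to 0.150). Ptger4 was lost without LSK replicate 1 (0.0687) and without LK replicate 3 (0.0778). Averaging all probe sets of a gene also ended the calls of C5ar1 (0.47, limma adjusted p = 0.123) and Ptger4 (0.59, limma adjusted p = 0.0526). Cxcr4, the chemokine receptor that holds progenitors in the marrow, had means of 11.21 in LSK and 11.04 in LK (limma adjusted p = 0.784).

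Among 13 adenylyl cyclase and phospholipase C beta genes, 6 receptor kinase and arrestin genes and 17 other regulators of G alpha, 0 were called by limma. At an unadjusted limma p under 0.05 there were 3, 1 and 6, and 22.4% of all genes lay under that p. The lowest p in each list belonged to Plcb3 (log2 difference 0.56, limma adjusted p = 0.0993), Grk6 (-0.78, limma adjusted p = 0.102) and Gpsm3 (0.91, limma adjusted p = 0.0701). The medians of these lists were 0.10, -0.041 and 0.030. With the block 1, 1 and 2 genes were called, where 14.4% of all genes were. Plcb3 was higher (limma adjusted p = 0.0417) and Grk6 lower (limma adjusted p = 0.0486). Of the other regulators Arhgef12 was higher (log2 difference 0.99, limma adjusted p = 0.0165) and Gpsm2 lower (-1.64, limma adjusted p = 0.0300).

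**Figure D4:**
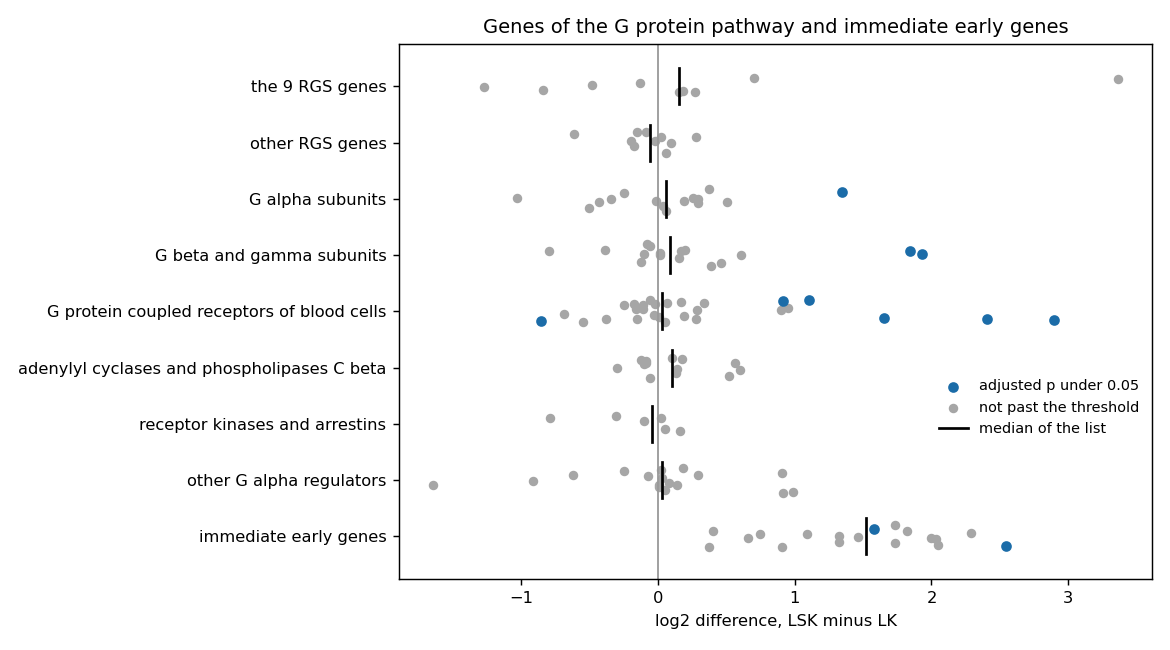
Log2 difference, LSK minus LK (horizontal axis), of each measured gene in the 9 lists, where blue points passed limma at an adjusted p under 0.05, grey points did not, and black bars are medians. The point of Rgs1 at 3.36 is grey, and the immediate early genes are the list whose 18 points all lie above 0.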

How the data were processed

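Expression was measured on 1-colour Affymetrix mouse arrays, 1 array for each of 6 samples. Per the submitters' processing notes, the authors made the deposited intensity values, which are linear, with RMA in affy (R 2.11.0). RMA includes a quantile normalisation, which removes much of a shift shared by all genes, although the deposited arrays still differ somewhat in their upper quartiles (20.8 to 25.8). Detection calls were not used here.

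Values were taken to log2. Of 45037 probe sets that are not controls, 34945 had a single symbol, updated by gene identifier through RefSeq (GRCm38.p6). The probe set with the highest mean stood for each of 18193 genes. Population was the only term in limma 3.58.1 (R 4.3.3, lmFit and eBayes, two-sided), and an adjusted p under 0.05 (Benjamini-Hochberg, all genes) was the threshold. Probe sets were fitted in the same way over all 45037. The code was tested on simulated data.

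Members and lists were chosen with earlier results of these data known. Other genes are named by a rule: from each pathway list and the immediate early list the 3 largest called differences and the largest opposite one, or the lowest p where none was called. The marker lists were outside this rule. Ptger4, C5ar1, Gp9, Pf4, Gp5, Vwf, C1qb, Csf1r, Emcn, Kit, Gnai2, Gnai3, Cxcr4, Arhgef12, Gpsm2 and Rgs13 were added after their values were seen. The rule also asked for the genes closest in pattern to each called RGS gene, and none was called.

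The labels number the arrays 1 to 3 in each population without saying why. Deviations from the population means correlated across genes at 0.417, 0.433 and 0.273 between arrays of the same number, so the numbers were taken to pair the arrays, a pairing that comes from the data. Alternatives were this block, 2 normalisations, a dim filter, other probe set choices, variance models, array weights, a 3' to 5' covariate and arrays left out.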

Additional observations from a re-analysis of the deposited data

How the results depend on the processing

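The count of RGS genes past the threshold, 0 at first, was 2 with the replicate number as a block or with array weights. The weights were 0.72, 0.50 and 3.66 on LK arrays 1, 2 and 3, so that fit leaned on LK array 3. On LSK arrays they were 1.31, 0.54 and 1.08. The count was 1 with quantile normalisation repeated, only genes of a mean log2 of at least 5, the probe set of largest variance, trend and robust variances, both arrays numbered 2 left out, or LK replicate 2 left out. It was 0 in the other 8 of 16 alternatives, and 0 to 1 without single arrays. Rgs1 had log2 differences of 3.36 with the block, the dim filter or trend and robust variances (adjusted p 0.00522, 0.0372 and 0.0245), 3.34 with array weights (0.0190) and 3.05 without both arrays numbered 2 (0.0358). Across all its alternatives Rgs1 ranged from 2.42 to 4.13, with adjusted p from 0.00522 to 0.671. Rgs2 reached 1.37 (0.0352) with the probe set of largest variance. Rgs10 was called at -1.27 with the block, -1.29 with repeated quantiles (0.0461), -1.28 with array weights (0.0236) and -1.67 without LK replicate 2. It ranged from -1.67 to -0.91, with adjusted p from 0.0218 to 0.472. Without single arrays Rgs18 ranged from -0.095 to 0.33 and Rgs19 from -0.31 to 0.0086. Rgs19 turned to 0.32 with the 3' to 5' covariate and to 0.10 without both arrays numbered 2. Rgs3, Rgs12, Rgs14 and Rgs16 kept their sign and stayed past no threshold in the 15 alternatives that measured them. The causes were not tested.

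The count over all genes was 1225, and 2617 with the replicate block, 2606 with array weights, 537 without both arrays numbered 2, 25 with the covariate and 306 to 1269 without single arrays. The pathway lists held 9 called genes, and 15 with the block, 17 with array weights, 5 with the dim filter, 4 without both arrays numbered 2, 0 with the covariate and 4 to 8 without single arrays. With the block 12 immediate early genes were called, and 2 without it. Arrays without detection calls cannot show whether the genes near a log2 of 3 are expressed.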
